A study of Homo sapiens with 4 samples.

Results

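The p53 pathway, cell cycle and apoptosis genes described here are 46 protein-coding genes taken by name and placed at their RefSeq positions in GRCh38.p14, and all 46 were found among the 20052 protein-coding genes of that table. A gene was counted as holding a peak when a called peak overlapped it by at least 1 bp or lay within 5 kb of it. The peaks come from chromatin immunoprecipitation with sequencing (ChIP-seq) in K562 cells, a line grown from the blast crisis of a patient with chronic myeloid leukemia, in which an antibody against the HA tag was used on cross-linked chromatin. One condition was cells overexpressing HA-PHF6 and the other was control cells overexpressing HA, all untreated, with 1 ChIP library and 1 input per condition and therefore no replicates. The titles tell the ChIP libraries apart only as HA and WT, from which it stays unclear where HA-PHF6 was expressed, and the names HA library and WT library below repeat those labels without assigning a condition.

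p53 is a transcription factor that is stabilized after DNA damage and other stress and switches on genes for cell cycle arrest, DNA repair and apoptosis. MDM2 marks p53 for degradation and is itself a p53 target, which closes a feedback loop. The checkpoint kinases ATM and ATR sense damaged DNA and act through CHEK2 and CHEK1, while cyclins and cyclin-dependent kinases (CDKs) drive the cell cycle that the pathway holds back. PHF6 is a chromatin-associated protein with plant homeodomain-like zinc fingers that is often mutated in T-cell leukemia. K562 cells are known to lack working p53 protein.

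Few of the genes held a peak in either library. In the HA library, 5 of the 46 genes (10.9%, 95% Wilson confidence interval 4.73% to 23.0%) held 6 peaks, and these genes were ATR, IGFBP3, PPM1D, RPRM and XPC. For the WT library, again 5 of the 46 (10.9%, 4.73% to 23.0%) held 6 peaks, at AEN, ATM, BAX, DDB2 and TNFRSF10B. None of the 46 held a peak in both libraries and 36 held one in neither, among them MDM2, CDKN1A and all 6 cyclins and CDKs. Across all protein-coding genes the share with a peak was 22.2% for HA, 10.2% for WT and 4.75% for both at once. The intervals cover counting error only.

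Longer genes offer more room for a peak, so each of the 46 was set beside the other protein-coding genes between 0.8 times its length and its length divided by 0.8, which numbered from 428 to 2394 per gene. The mean share of these genes with a peak was 18.4% in the HA library and 7.77% in the WT library. At these shares, 8.48 of the 46 genes would hold a peak in the HA library, where 5 did, and 3.58 in the WT library, where 5 did. Both mean shares lay inside the interval around the listed genes' own 10.9%, so a difference from genes of like length was not detectable with 46 genes and 1 library per condition. The listed genes ran from 1.31 kb (SFN) to 232 kb (CDK6) with a median of 23.9 kb, against a median of 24.1 kb over all protein-coding genes. CDK6, a kinase that pairs with D-type cyclins to push cells into S phase, was the longest and held no peak in either library, although 54.0% of genes of its length did in the HA library and 28.7% in the WT library.

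**Figure D1:**
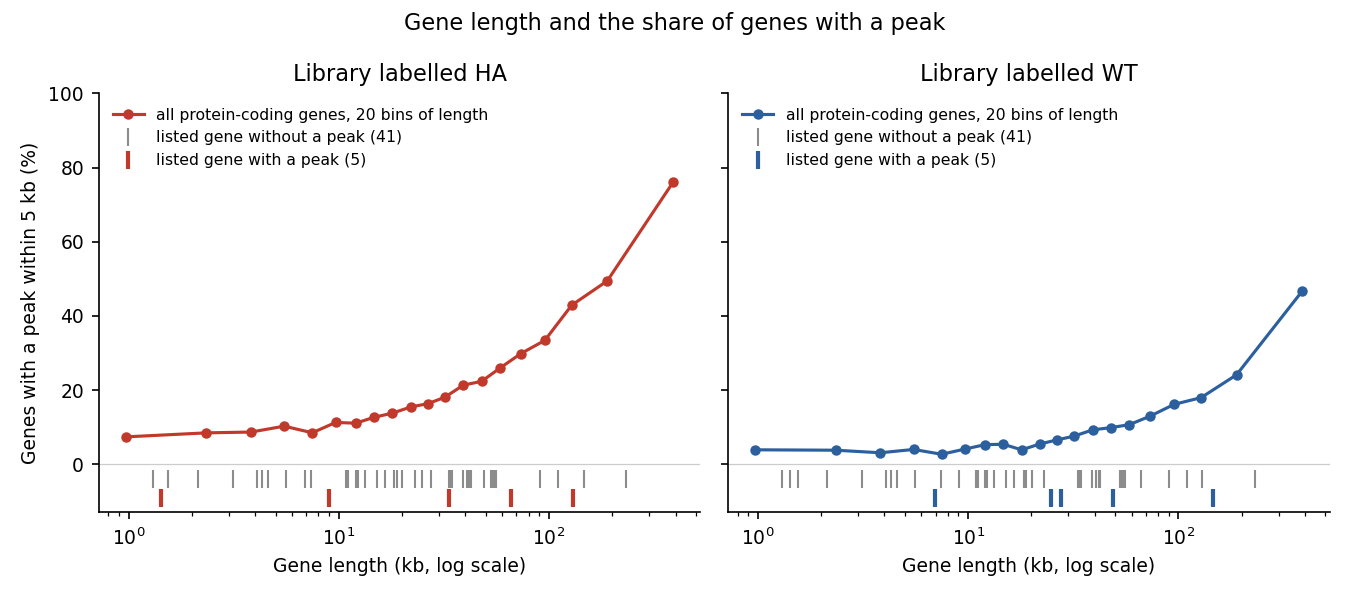
Share of protein-coding genes with a peak within 5 kb (vertical axis, percent) against gene length (horizontal axis, kb, log scale) in 20 bins of about equal size, for each ChIP library. The ticks under the curves mark the lengths of the 46 listed genes, of which 41 held no peak and 5 held one in either panel.

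The peaks at these genes were weak. The authors called them against the matching input at a p-value cutoff of 0.005, and set no bound on q, the p-value after correction for multiple testing. A q-value of 1 is a −log10 q of 0. The pileup is the number of sequenced fragments (tags) stacked at the summit of a peak, and the fold enrichment is that pileup over the local input background, with 1 added to both. The 6 HA peaks had pileups of 5 to 6 tags with a median of 5, which was also the median of all 12662 peaks in that list. Their fold enrichments ran from 2.40 to 3.42 with a median of 2.74, against 2.93 over the list. The 6 WT peaks had pileups of 6 to 30 tags with a median of 7.5, against 8 over all 6874 peaks, and fold enrichments of 2.48 to 4.21 with a median of 2.96, against 2.84. The q-value was 1 for 4 of the 6 HA peaks and 3 of the 6 labelled WT, and it was under 0.05 for a single one, beside BAX. In both lists most calls were of this kind, with a q-value of 1 for 64.0% and 58.0% of all peaks.

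**Figure D2:**
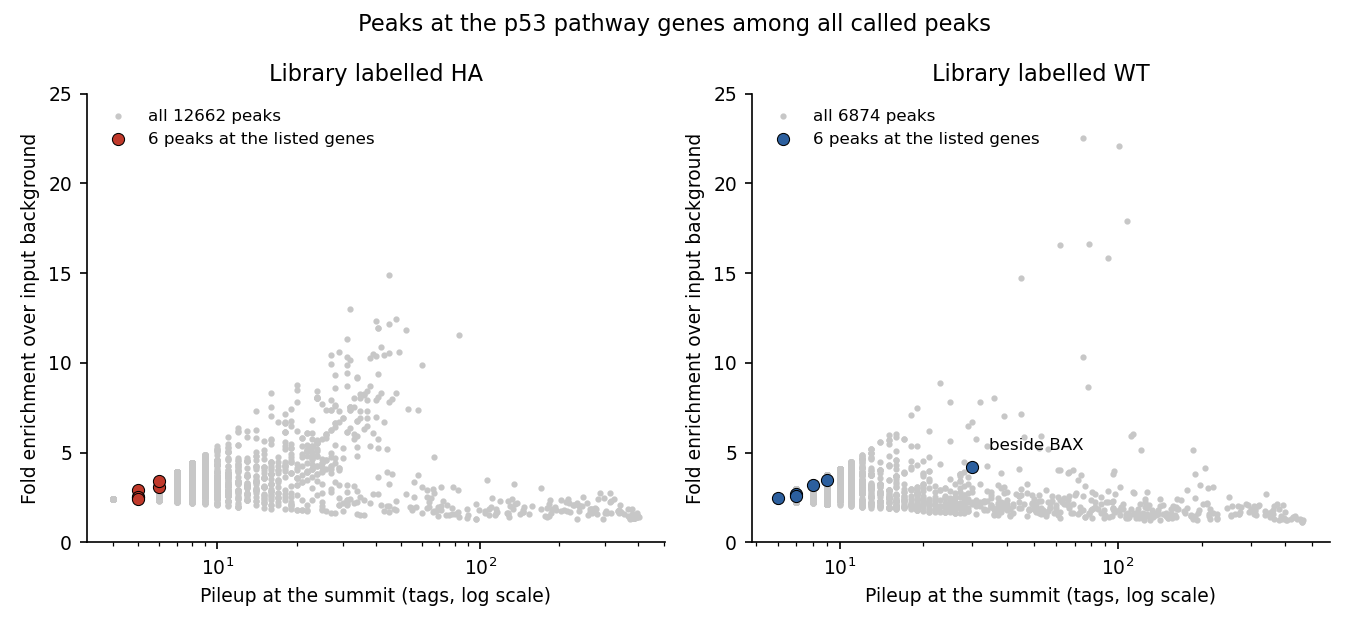
Fold enrichment over the input background (vertical axis) against pileup at the summit (horizontal axis, tags, log scale) for all called peaks (grey) and for the 6 peaks at the listed genes (coloured) in each library. All 6 HA peaks and 5 of the 6 labelled WT sit at the low end of both axes, and the peak beside BAX stands at 30 tags and a fold enrichment of 4.21.

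No peak overlapped a start window of the 42 listed genes for which one was at hand. The promoter table, from RefSeq on GRCh38.p14, gives windows from 250 bases before to 50 after each annotated start and held 64 windows for 42 of the 46 genes, leaving CCND1, GADD45A, RRM2B and TNFRSF10B unmatched, whose starts were not analysed here. A peak overlapped 0 of the 64 windows in either library, which allows a share of up to 4.69% if windows are counted as independent. Windows of 1 gene can share bases, so this bound is too narrow. Of the 22198 windows of all protein-coding genes, 1.59% held an HA peak and 0.149% a WT peak, which would give 1.01 and 0.0951 of 64 windows. At these shares 0 of 64 could not be told apart from windows in general.

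The 250 bases before the start are shown for RPRM and AEN, because these were the members with a window whose start lay nearest to the summit of one of their own peaks, in the HA library and in the WT library. RPRM lies on the minus strand (chr2:153478763-153479012) and AEN on the plus strand (chr15:88621090-88621339), both on GRCh38.p14. The AEN stretch lies inside the gene, which begins at 88604683. The bases before that outer boundary were not analysed, and AEN was picked by its inner start. Capitals mark CCAAT (the motif of NF-Y), TTTGAA (the cell cycle homology region), GGGCGG (the GC box), CACGTG (the E-box) and TATAAA (the TATA box) on either strand.
RPRM: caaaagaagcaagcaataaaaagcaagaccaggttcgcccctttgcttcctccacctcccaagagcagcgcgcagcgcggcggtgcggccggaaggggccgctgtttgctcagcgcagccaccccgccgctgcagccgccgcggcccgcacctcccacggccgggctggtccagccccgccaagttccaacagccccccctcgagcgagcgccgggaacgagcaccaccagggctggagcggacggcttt
AEN: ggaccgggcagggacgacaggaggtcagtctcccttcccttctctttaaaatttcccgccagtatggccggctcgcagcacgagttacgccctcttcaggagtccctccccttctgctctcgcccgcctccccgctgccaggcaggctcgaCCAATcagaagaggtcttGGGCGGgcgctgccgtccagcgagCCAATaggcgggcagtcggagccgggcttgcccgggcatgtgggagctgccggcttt
The AEN stretch held 2 CCAAT boxes and 1 GC box, and the RPRM stretch held 0 matches to the 5 motifs. Over the 250 bases before the start in the 64 windows of the listed genes, CCAAT stood in 51.6% and GGGCGG in 73.4%, against 32.7% and 53.7% of the windows of all protein-coding genes. For the other motifs these shares were 12.5% and 11.0% for TTTGAA, 12.5% and 7.37% for CACGTG and 3.13% and 9.01% for TATAAA. The letters CATG, a common centre of p53 binding sites, stood in 28.1% and 41.9%. The median share of G and C in these 250 bases was 65.6% for the listed genes and 62% for all. The motif shares were not adjusted for it, and their differences were not tested. Windows of 1 gene with several starts can share bases, and no peak lay in any of the 64 windows.

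The 3 regulators of p53 were PPM1D, MDM2 and MDM4, and genes of like length would give 0.709 genes with an HA peak and 0.301 with a WT peak. PPM1D encodes a phosphatase that switches off p53 and its activating kinases, and it was the only listed gene with more than 1 peak inside it. Both were in the HA library, on chromosome 17. The peak from 60627380 to 60627595 had 6 tags over a background of 1.26 and 3.10-fold enrichment (−log10 p 3.47, −log10 q 0.0585). The peak from 60662803 to 60663100 had 5 tags over 1.36 and 2.54-fold enrichment (−log10 p 2.56, −log10 q 0). The gene runs from 60600193 to 60666280, so that both lay within it, the first 27370 bp after its start and the second 3429 bp before its end. Of genes of like length 28.0% held a peak in this library. The WT library had its nearest peak 175 kb from PPM1D.

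MDM2, the ligase that marks p53 for degradation, held no peak. Its nearest peaks lay 67.8 kb away with 4 tags in the HA library and 242 kb away with 9 tags in the WT library. MDM4, the partner of MDM2 that covers the activating part of p53, held no peak within 5 kb either. A pair of stronger HA peaks lay beyond that limit, 9655 bp and 9223 bp from the gene on its lower-coordinate side, at the transfer RNA genes TRK-TTT3-1 and TRK-TTT3-2. They had 38 and 18 tags, fold enrichments of 10.3 and 4.50 and −log10 q of 24.0 and 4.07. These were the highest pileups of any HA peak within 10 kb of a listed gene.

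Of the 10 genes grouped here under arrest and growth restraint, RPRM held the single peak. The heading serves description and need not hold for the function of each member. Genes of like length would give 1.05 genes in the HA library and 0.391 in the WT library. RPRM encodes Reprimo, a small membrane-anchored protein that holds cells in G2. Its peak was in the HA library on chromosome 2, from 153482657 to 153483036, with 6 tags over the genome-wide background of 1.05 and 3.42-fold enrichment (−log10 p 3.96, −log10 q 0.106). As many as 1338 peaks of that list carried identical values. The summit lay at -3982 bp relative to the RPRM start, and the peak overlapped GALNT13, a gene for a glycosyltransferase that lies beside RPRM. The nearest WT peak was 119 kb from RPRM.

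The other 9 genes of this group held no peak in either library. CDKN1A encodes p21, the CDK inhibitor through which p53 stops the cycle in G1, and its nearest peaks lay 45.5 kb (HA) and 298 kb (WT) away. For the growth arrest and DNA damage genes these distances were 77.7 kb and 283 kb at GADD45A, 10.5 kb and 102 kb at GADD45B and 227 kb and 1854 kb at GADD45G. SFN, which encodes the 14-3-3 sigma protein, had its nearest WT peak at 18.6 kb and its nearest HA peak at 167 kb. The antiproliferative gene BTG2, the kinase gene PLK3 and the cyclin G1 gene CCNG1 had none within 50 kb in either library. GTSE1, a gene expressed in G2 and S phase, came just outside the limit in the HA library, with a peak of 6 tags and a fold enrichment of 3.30 at 5368 bp. That peak overlapped TRMU, another protein-coding gene, and had a −log10 q of 0.106.

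None of the 6 cyclins and CDKs held a peak, where genes of like length would give 1.11 genes in the HA library and 0.516 in the WT library. CCND1, the cyclin of early G1, had a WT peak just outside the limit, at 5838 bp, with 7 tags and 2.40-fold enrichment (−log10 q 0). At CDK1, the kinase of mitosis, the nearest WT peak lay 12.3 kb away and the nearest HA peak 72.0 kb away. CCNB1, the cyclin that pairs with CDK1, had its nearest peaks at 191 kb (HA) and 274 kb (WT). For CDK4, CDK6 and CCNE1 both distances exceeded 50 kb.

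Of the 13 apoptosis genes, 0 held an HA peak and 3 a WT peak, where genes of like length would give 2.28 and 0.950. With 13 genes and 1 library per condition, neither a difference between the libraries nor one from genes of like length was tested. The 3 genes with a WT peak were BAX, AEN and TNFRSF10B. BAX encodes a protein that opens the outer mitochondrial membrane and commits the cell to death. The peak assigned to it was the strongest at any listed gene in the WT library, on chromosome 19 from 48965357 to 48965596, with 30 tags and 4.21-fold enrichment (−log10 p 11.7, −log10 q 6.60). It ranked 132 among the 6874 peaks by −log10 p. It did not overlap BAX, which ends 3559 bp away at 48961798, and it lay within FTL, the gene of the ferritin light chain, which runs from 48965309 to 48966879. The input background there was 6.36 tags, against 1.68 tags genome-wide. BAX itself was overlapped by 0 peaks in either library, and FTL by 1 WT peak and 0 labelled HA.

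AEN encodes an exonuclease that p53 induces and that cuts DNA in dying cells. Its WT peak lay inside the gene on chromosome 15, from 88629526 to 88629769, with 7 tags over 1.95 and 2.71-fold enrichment (−log10 p 3.03, −log10 q 0). The summit was 8294 bp after the only start in the promoter table, which lies inside the gene. From the lower-coordinate boundary of AEN at 88604683, its 5′ side, the summit was 24951 bp away. TNFRSF10B encodes the death receptor DR5, which binds the ligand TRAIL. Its WT peak, on chromosome 8 from 23068443 to 23068686, had 7 tags over 2.08 and 2.60-fold enrichment (−log10 p 2.86, −log10 q 0). The peak also overlapped TNFRSF10B-AS1. Its summit lay 488 bp inside the higher-coordinate boundary of TNFRSF10B at 23069031, closer to a boundary of its gene than the other 11 summits. The gene is known to be transcribed from the minus strand, so that this boundary is its 5′ side, but it had no start window to compare with.

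The other 10 apoptosis genes held no peak in either library. FAS, the receptor of the Fas ligand, had its nearest HA peak at 28.6 kb and its nearest WT peak at 1049 kb. BBC3 encodes PUMA and PMAIP1 encodes NOXA, which both counter the survival proteins of the BCL2 family. The nearest HA peak was at 30.0 kb for BBC3 and at 206 kb for PMAIP1. CASP9 and APAF1, which form the apoptosome, had theirs at 13.1 kb and 116 kb. At CASP8, the initiator caspase of death receptors, and at its substrate BID, the distances were 33.3 kb and 40.8 kb. The oxidoreductase gene TP53I3, the endoplasmic reticulum gene EI24 and PERP, which encodes a membrane protein of cell junctions, had none within 50 kb in either library.

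Of the 3 genes of DNA repair and nucleotide supply, 1 held an HA peak (XPC) and 1 had WT peaks within 5 kb (DDB2), where genes of like length would give 0.535 and 0.223. XPC, which finds damaged bases in nucleotide excision repair, held an HA peak on chromosome 3 from 14158967 to 14159167. It had 5 tags and 2.40-fold enrichment (−log10 p 2.35, −log10 q 0), and 1.86% of the peaks in that list had a lower −log10 p. DDB2, which recognizes ultraviolet damage for the same repair, had 2 WT peaks on chromosome 11. One ran from 47242513 to 47242804 with 6 tags and a fold enrichment of 2.48, and the other from 47243031 to 47243264 with 9 tags over 1.89 and 3.46-fold enrichment (−log10 p 4.54, −log10 q 0.470). They lay 3296 bp and 3814 bp beyond the end of DDB2 and overlapped ACP2, a gene for a lysosomal acid phosphatase. RRM2B, a subunit of ribonucleotide reductase, held none, with its nearest peaks at 32.8 kb (HA) and 469 kb (WT).

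Of the 4 checkpoint kinases 1 held an HA peak (ATR) and 1 a WT peak (ATM), where genes of like length would give 1.34 and 0.589. ATR, which answers stalled replication forks, held an HA peak on chromosome 3 from 142547953 to 142548153. It had 5 tags over 1.39 and 2.51-fold enrichment (−log10 p 2.50, −log10 q 0). ATM, which answers double-strand breaks, held a WT peak on chromosome 11 from 108356596 to 108356829, where C11orf65 overlaps it. That peak had 8 tags over 1.81 and 3.20-fold enrichment (−log10 p 3.94, −log10 q 0.220). ATR and ATM span 129499 bp and 146036 bp and are among the longest of the 46. Of genes of the length of ATR, 41.4% held a peak in the HA library, and of genes of the length of ATM, 19.0% held one in the WT library. CHEK1 had its nearest peaks at 108 kb (HA) and 86.1 kb (WT), and CHEK2 at 162 kb and 592 kb.

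Of the 2 secreted proteins, IGFBP3, which binds insulin-like growth factors, had an HA peak on chromosome 7 from 45909744 to 45910007. It lay 2238 bp beyond the end of the gene, with 5 tags over the genome-wide background of 1.05 and 2.93-fold enrichment (−log10 p 3.13, −log10 q 0), and 2340 peaks of that list had exactly these values. THBS1, an inhibitor of blood vessel growth, held none. Genes of the length of this pair would give 0.242 genes with an HA peak and 0.0862 with a WT peak. The 5 genes of stress defence, metabolism and iron, SESN1, SESN2, TIGAR, ZMAT3 and STEAP3, held no peak in either library. Genes of like length would give 1.20 and 0.518 genes there. The sestrins SESN1 and SESN2, which restrain growth signalling through mTORC1, had their nearest HA peaks at 25.6 kb and 87.6 kb. STEAP3, a ferrireductase of iron uptake, had its nearest HA peak at 341 kb and its nearest WT peak at 220 kb.

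**Figure D3:**
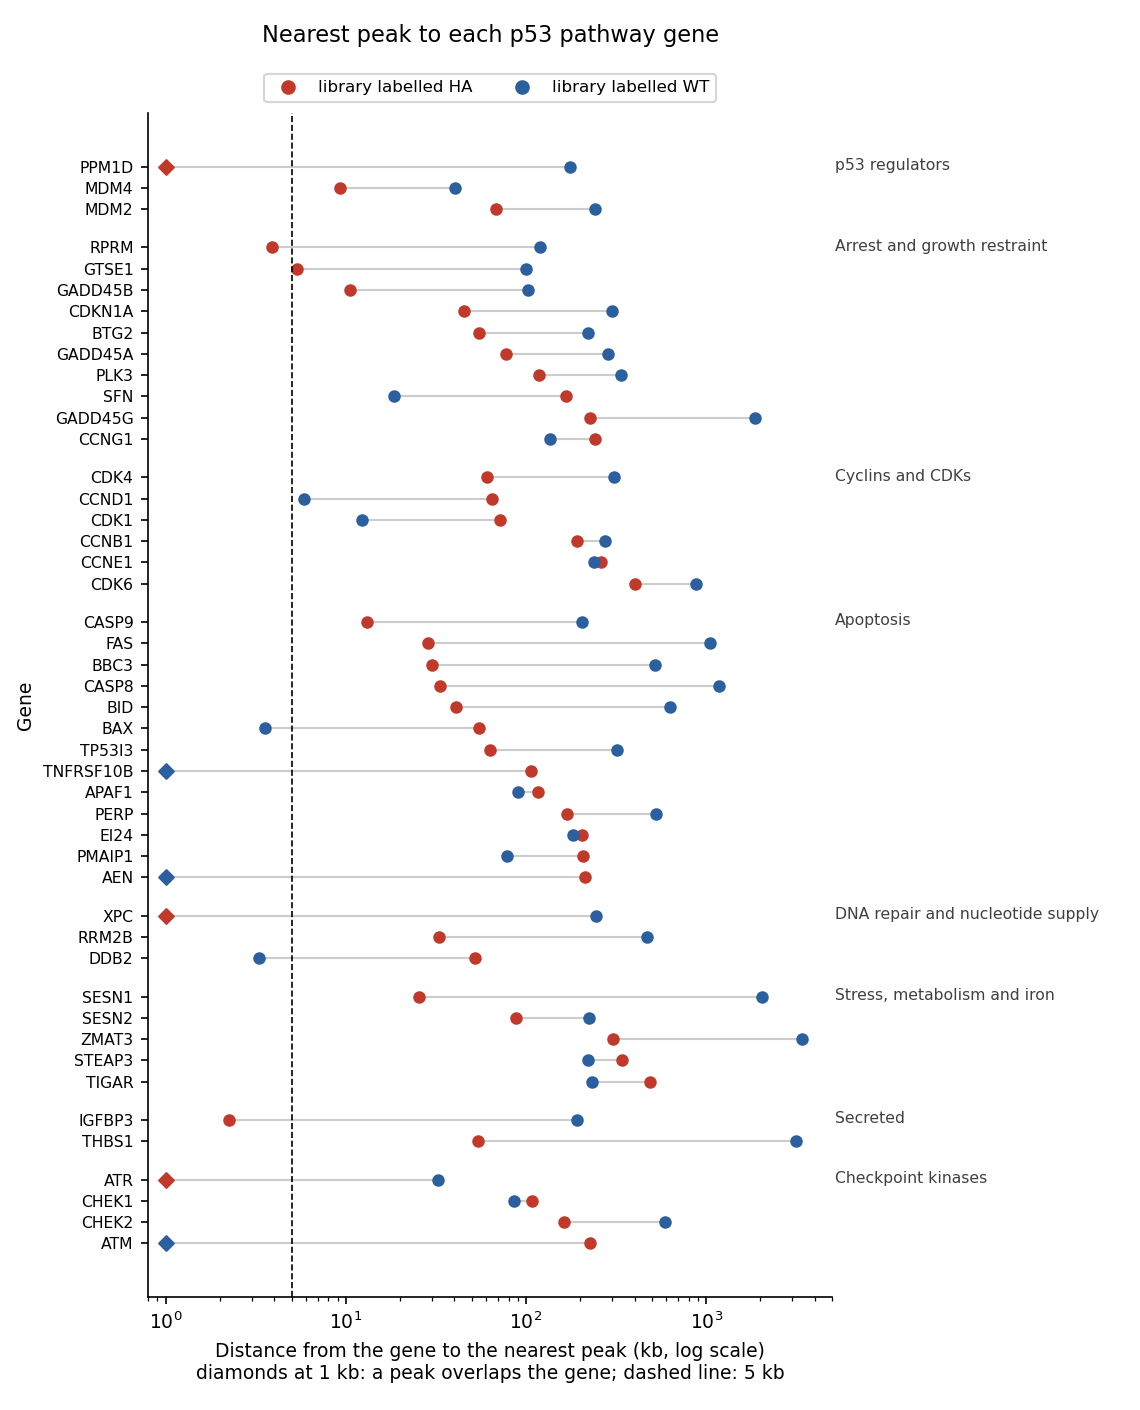
Distance from each of the 46 genes to its nearest peak (horizontal axis, kb, log scale) in the HA library (red) and the WT library (blue), with genes in the order of their roles. Diamonds drawn at 1 kb mark a peak that overlaps the gene, and the dashed line is the limit of 5 kb. No gene has both points left of that line.

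The median distance to the nearest peak was 66.1 kb in the HA library, against 56.9 kb over all protein-coding genes. In the WT library it was 223 kb, against 189 kb. More than 100 kb separated 19 of the 46 genes (41.3%) from an HA peak and 33 (71.7%) from a WT peak, where the shares over all genes were 35.1% and 65.1%. Differences of this size from all genes were not tested. The largest distances were 489 kb at TIGAR and 3380 kb at ZMAT3.

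Depth bore on the lists in different ways. With 16132466 ChIP tags in the HA library and 22257947 in the WT library, the genome-wide background was 1.05 and 1.68 tags, and the fewest tags of any peak were 4 and 6. At the same enrichment, the 6 places labelled HA would carry 8.03 to 9.64 tags in the WT library, above the 6 tags of its weakest peaks, yet the nearest WT peak was 115 to 259 kb from them. The 6 places labelled WT would carry 3.74 to 18.7 tags in the HA library, with 5 of them at or above the 4 tags of its weakest peaks, and the nearest HA peak was 47.9 to 360 kb away. The 4 and 6 tags are enough for a call only at the genome-wide background, and a higher local background requires more. The local background of the other library at these places was not computed, so whether a call was to be expected there is not known. Single calls of 5 to 9 tags vary with counting alone, so the absence of a call at these places in the other library was not tested as a difference.

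Other genes of the pathway were taken from a list of 23, chosen with earlier results of these data known. In the HA library 7 of them (30.4%, 15.6% to 50.9%) held 10 peaks, against 20.7% of genes of like length, and in the WT library 1 (4.35%, 0.772% to 21.0%) held 1 peak, against 9.0%. Genes of like length would give 4.76 and 2.07 of the 23. Both like-length shares lay inside the intervals, so a difference was not detectable with 23 genes. The 7 with an HA peak were ADGRB1, BAK1, BCL2L1, CCNB2, CCND3, RCHY1 and TP73. ADGRB1, which spans 95359 bp, was the 1 gene of the 23 with a peak in both libraries, against 4.75% of protein-coding genes of any length. Among genes in the length bin with a median of 95.5 kb, 33.4% held an HA peak and 16.2% a WT peak. The share with both was not computed for that length. The HA peaks at ADGRB1 each had 4 tags, the fewest in that list, and 2.44-fold enrichment, values that 2433 peaks carried. The WT peak at ADGRB1 had 7 tags and 2.98-fold enrichment and lay 5500 bp from the nearest HA peak. None of the ADGRB1 peaks had a q-value under 0.05. The highest pileup at any of the 23 genes was 16 tags at CCND3, a D-type cyclin, with 4.28-fold enrichment (−log10 q 3.13). That peak lay 354 bp outside CCND3 and overlapped TAF8, a gene for a subunit of the general transcription factor TFIID. BCL2L1, which encodes the survival protein BCL-XL, held a peak of 11 tags with 3.39-fold enrichment (−log10 q 0.616). BAK1, the partner of BAX in opening mitochondria, had 2 peaks of 8 tags on either side, at 4876 bp and 1519 bp.

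The comparison with genes of like length kept its order in the HA library, where the listed genes were at or below genes of like length for every distance and threshold shown in the plot of settings. For the WT library the listed genes were above genes of like length at 5 kb, at 0 kb (6.52% against 6.19%), at 10 kb (13.0% against 9.44%), at 50 kb (21.7% against 21.3%) and with a q-value under 0.05 (2.17% against 0.225%). They were below them when each peak was given to its nearest protein-coding gene alone, a choice made after seeing the data (6.52% against 7.12%), where the peaks beside BAX and DDB2 went to FTL and ACP2. With a q-value under 0.05, 0 of the 46 genes held an HA peak, which allows a share of up to 6.52%, and 1 held a WT peak, which was BAX through the peak in FTL.

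**Figure D4:**
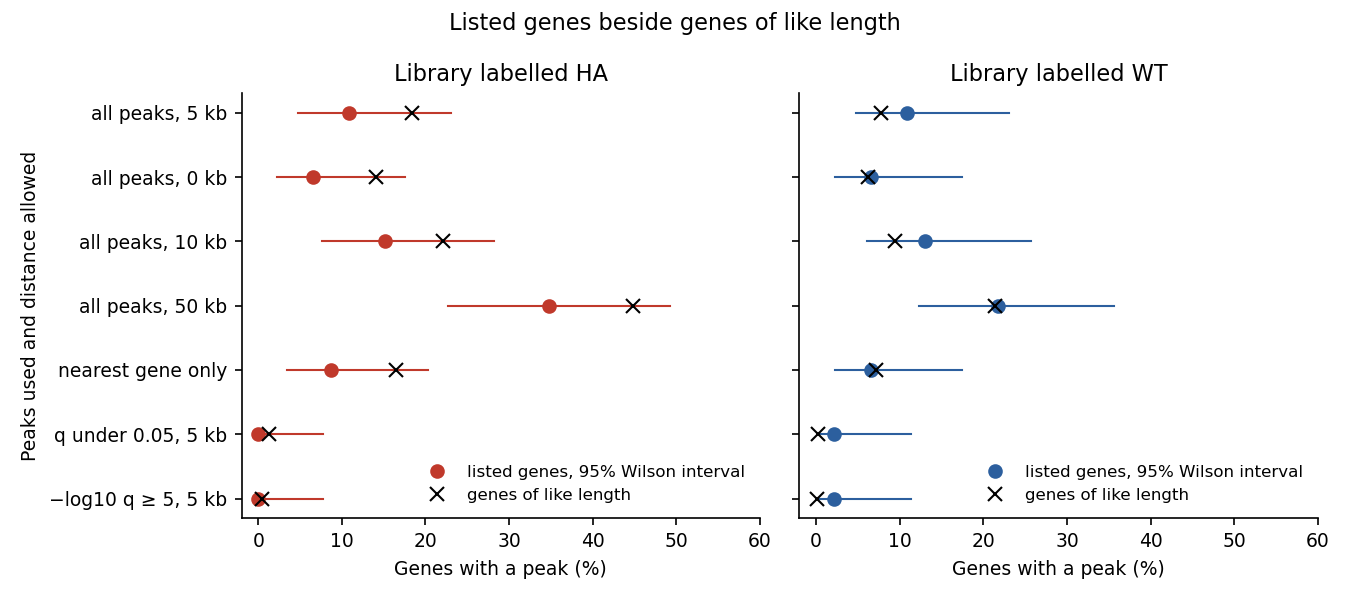
Share of genes with a peak (horizontal axis, percent) for the 46 listed genes (points, with 95% Wilson intervals) and for genes of like length (crosses) under 7 choices of peaks and distance, of which the nearest gene alone was chosen after seeing the data. For the HA library every cross lies to the right of its point and inside the interval, and in the WT library the crosses lie to the left of their points except for the nearest gene alone.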

How the data were processed

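The authors performed ChIP-seq with an HA antibody in K562 cells overexpressing HA-PHF6 and in their control, each with an input. The submitters' processing notes name BWA 0.7.12 and MACS2 2.1.0. Per the file headers, peaks were called with MACS 2.1.0.20150420 on alignments whose names mark them as unique and deduplicated, separately for the HA and WT libraries with the matching input as control, at p 0.005 and without a fragment model, after extending tags to 201 bp (HA) or 234 bp (WT). The deposited pileup is a signal in tags, the deposited fold enrichment a ratio of pileup to input background, and p-values and q-values were deposited as −log10. These values are not scaled between the lists. The genome build is not given in the sources used here. Chromosome and contig names match GRCh38.

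The background at a summit was computed from pileup and fold enrichment. Genes were placed with the RefSeq table of GRCh38.p14, which holds no exons, so exonic and intronic positions were not analysed here. The overlap step was checked beforehand on made-up intervals with known answers. With 1 library per condition no test between libraries was made. Members, role lists and the list of other pathway genes were chosen with earlier results of these data known. Every member with a peak is named, and MDM4, GTSE1, CCND1, FTL and other neighbours were named after their values were seen. Scripts ran under Python 3.11.15 with scipy 1.17.1, numpy 2.4.6, pandas 2.3.3 and, for plots, matplotlib 3.10.9. Alternatives were other distances, thresholds and ways of assigning peaks.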

Additional observations from a re-analysis of the deposited data

How the results depend on the processing

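No paired analysis was possible because only a single ChIP library exists per condition. The 5 members with a peak and 6 peaks of each library became 3 members in either library and 3 WT peaks with overlap of the gene alone, where genes of like length stood at 14.1% (HA) and 6.19% (WT). Within 10 kb the like-length shares were 22.1% and 9.44%, and within 50 kb there were 16 members and 20 HA peaks, 10 and 13 labelled WT, and shares of 44.9% and 21.3%. Stricter limits left few peaks. At a −log10 q of at least 5 there were 0 members and 0 HA peaks, 1 and 1 labelled WT, and shares of 0.477% and 0.0715%. At a q-value under 0.05 the counts were again 0 and 0, and 1 and 1, with shares of 1.23% and 0.225%, and among the top 1000 peaks 0 and 0, and 1 and 1, with 2.07% and 0.779%. Requiring 5-fold enrichment or more, all 4 counts were 0, with shares of 0.482% and 0.0501%. With the list labelled HA cut to the length of the shorter list, 2 members and 2 peaks remained, or 3 members (RPRM, IGFBP3 and PPM1D) when all peaks tied at the last p-value were kept, and the share was 11.4%. Giving each peak to its nearest protein-coding gene alone, an alternative chosen after seeing the data, left 3 members and 3 WT peaks, with shares of 16.5% (HA) and 7.12% (WT). Merging, summits, other bounds on like length and the assembled chromosomes alone moved no count of members and kept the like-length shares within their intervals. Of the 12 peaks, 11 rest on 5 to 9 tags.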
